A study of Mus musculus with 8 samples.

Results

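The Ube2 genes encode the ubiquitin-conjugating (E2) enzymes, and their transcripts were compared between wild-type and *Mir140*-null costal chondrocytes. The members were selected on their measured values. Of the 37 protein-coding genes whose GENCODE M21 symbol starts with Ube2, 33 reached 0.5 TPM in 4 or more of the 8 libraries, and these 33 are described, among 17177 genes of all biotypes that passed the same filter. TPM is the number of transcripts assigned to a gene per 1000000 transcripts of the library, after division by transcript length.

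RNA-seq was made from costal chondrocytes, the cartilage cells of the ribs, released with collagenase from mice aged 7 d. There were 4 wild-type and 4 *Mir140*-null libraries, all on a C57BL/6J background. The null allele is a CRISPR/Cas9 deletion of the *Mir140* locus, made in zygotes of mixed C57BL/6 and CBA/ca origin and present in every cell of the animal, and both the wild-type and the null lines were bred from *Mir140*+/- parents. The labels do not say whether each library is 1 animal, so the p-values measure the spread between these libraries, which may be technical.

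Ubiquitin is a small protein that cells attach to other proteins, most often to mark them for the proteasome. An E1 enzyme activates ubiquitin, an E2 carries it on a cysteine, and an E3 ligase brings the loaded E2 to the substrate, so that the E2 often decides whether a single ubiquitin or a chain is made and through which lysine the chain is linked. Ubiquitin-like proteins such as NEDD8 use the same relay with E2s of their own. In cartilage, chondrocytes make and fold large amounts of collagen, and the E2s at the membrane of the endoplasmic reticulum serve the disposal of proteins that fail to fold.

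*Mir140* makes miR-140-5p from one arm of its hairpin and miR-140-3p from the other, and the latter occurs with either of 2 start positions. The 2 forms are shown because they read different target words. Each is written 5′ to 3′ with its seed, bases 2 to 8, in capitals (RefSeq, GRCm38.p6, plus strand, chr8:107551288-107551308 and chr8:107551289-107551308).
miR-140-3p.2: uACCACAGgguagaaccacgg
miR-140-3p.1: aCCACAGGguagaaccacgg
The word opposite the seed of miR-140-3p.1 is CCTGTGG and that opposite the seed of miR-140-3p.2 is CTGTGGT, and both count as stronger where an A follows (CCTGTGGA and CTGTGGTA). Both share the letters CTGTGG, so that a stretch reading CCTGTGGT holds a word of each form. The words were searched on the transcript strand of each gene's longest annotated 3'UTR.

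*Ube2l3* is on the list of predicted conserved targets of miR-140-3p.1 and was higher in *Mir140*-null chondrocytes. Its word, and those of 3 other genes that were higher (*Ube2a*, the only one with a following A, *Ube2f*, the gene with the largest change, and *Ube2j1*), are shown with the bases around them (GENCODE M21, mm10, transcript strand, word in capitals). The coordinates of the stretches, in the same order, are chr16:17158944-17158970, chrX:36883291-36883318, chr1:91288068-91288094 and chr4:33050107-33050133. The first and last stand 995 bases into a 3'UTR of 2658 bases and 157 bases into one of 2403 bases.
*Ube2l3*, miR-140-3p.1 word: tttctgttaaCCTGTGGctgtattata
*Ube2a*, miR-140-3p.1 word: tttctgtcctCCTGTGGAgcatcagaga
*Ube2f*, miR-140-3p.1 word: gtcacgagttCCTGTGGccaccagggt
*Ube2j1*, miR-140-3p.2 word: gacattcaggCTGTGGTccaaaagttt
A word in a 3'UTR is a description of its letters and not a measured binding site. The words shown were all taken from higher genes. *Ube2r2*, which was not called (log2 fold change 0.27, limma adjusted p = 0.195), holds words of both forms at several places.

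TPM hold no read counts, and the authors give only a minimum number of reads for every sample. The exact depth of each library is therefore unknown and no counting error was attached. In wild-type libraries 17128 to 17950 genes reached 0.5 TPM. The null group split, with 15800 and 16056 such genes in replicates 1 and 2 and 17435 and 16991 in replicates 3 and 4. Genes of the mitochondrial genome took 4.06% to 6.98% of the TPM in wild-type and 8.41% to 10.1% in *Mir140*-null libraries. *Mir140* itself was listed at 0 in all libraries but the one labelled *Mir140*-null replicate 2, at 8.86 TPM, so its level does not separate the genotypes. The chondrocyte markers were present in every library: the 10 genes of that list summed to 58418 to 73085 TPM in wild-type and 43471 to 59593 TPM in *Mir140*-null libraries. The 8 perichondrial and fibroblast markers summed to 3171 to 6132 TPM in wild-type libraries. In the null group they summed to 598 and 751 TPM in replicates 1 and 2 and to 5448 and 3961 TPM in replicates 3 and 4. Of the chondrocyte list 2 genes were higher and 3 lower, and of the fibroblast list 1 was higher. For the 8 macrophage and leukocyte markers the wild-type sums were 37.3 to 63.4 TPM and the null sums 70.3 to 134 TPM. Of these *Cd14* was called higher, with a wild-type mean of 16.9 TPM and a null mean of 75.6 TPM. Every other gene of the list had a lower mean in the null group, and *Lyz2* and *Itgam* were called lower. *Cd68*, at 16.0 to 37.0 TPM over all libraries, was not called (wild-type mean 29.0 TPM, null mean 22.8 TPM). *Ptprc* and *Adgre1* were at most 0.590 TPM. Skeletal muscle markers summed to 79.2 to 106 and 37.5 to 62.7 TPM, erythroid ones to 646 to 1854 and 257 to 1725 TPM, endothelial ones to 14.8 to 35.1 and 11.6 to 48.8 TPM, and osteoblast ones to 10.3 to 18.1 and 3.10 to 14.7 TPM, with none of these lists holding a called gene. In bulk samples fewer cells of a type and less RNA per cell cannot be told apart.

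Of the 33 Ube2 genes, 12 were higher in *Mir140*-null chondrocytes at an adjusted p under 0.05 and none was lower (limma on log2(TPM + 1), two-sided, Benjamini-Hochberg over all 17177 genes). The share higher was 36.4%, beside 10.5% of all genes tested and 12.7% of the protein-coding ones, and the share called lower among all genes was 6.4%. Ube2 genes are mostly well expressed, and among members with a mean of at least 5 TPM it was 12 of 29 (41.4%), beside 17.4% of the protein-coding genes at that level. At an unadjusted limma p under 0.05, 17 members were higher and 0 lower. The share of all genes at that threshold was not computed, so these counts have no background beside them. The same 12 genes were the members whose 4 *Mir140*-null libraries all lay above all 4 wild-type libraries, a pattern that 15.7% of all genes tested had, and the reverse pattern was held by 0 members and by 10.2% of all genes. The 33 genes had a median log2 fold change of 0.35 against -0.01 for all genes tested and 0.13 for protein-coding genes with a mean of at least 5 TPM, and 27 of the 33 were positive. Since the members and the comparison were chosen with such results in view, these shares are a description.

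**Figure D1:**
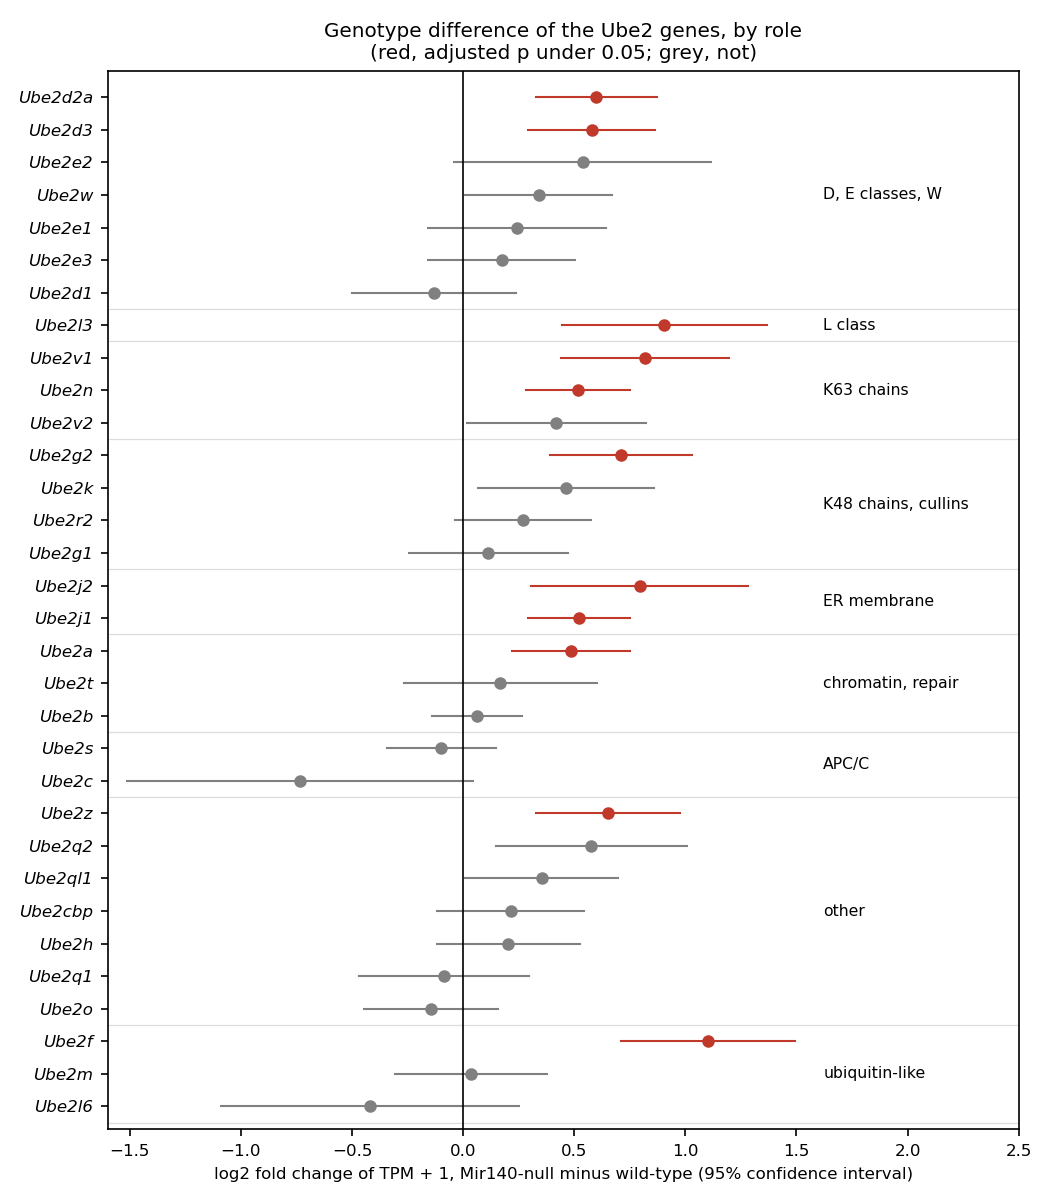
Log2 fold change of TPM + 1, *Mir140*-null minus wild-type, with its 95% confidence interval from limma for each Ube2 gene described, grouped by role. The genes in red passed an adjusted p of 0.05 and lie between 0.49 and 1.10, while the genes in grey, which did not pass, lie between -0.73 and 0.58.

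The count depends on how the libraries are put on one scale. Scaling by the median ratio over genes with a mean of at least 5 TPM moved the median of all genes to -0.11 and left 7 members higher and 0 lower, beside 6.43% of all genes higher (the share of higher genes among all called ones went from 62.0% to 38.4%). The 7 were *Ube2f*, *Ube2j1*, *Ube2n*, *Ube2g2*, *Ube2d2a*, *Ube2v1* and *Ube2l3*. The median of the members was then 0.23, which is 0.34 above the median of all genes, against 0.36 above it without scaling. With 1 library left out at a time, 4 to 12 members were higher: 4 without wild-type replicate 4, 5 without *Mir140*-null replicate 2, 6 and 7 without wild-type replicates 3 and 1, and 11 or 12 without any of the other 4. The share of all genes that were higher fell too, from 10.5% to 5.19% without wild-type replicate 4, 4.48% without *Mir140*-null replicate 2, 4.78% without wild-type replicate 3 and 6.04% without wild-type replicate 1.

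Summed over the 33 genes, E2 transcripts made up 1268 to 1329 TPM in wild-type, and 1916, 1795, 1607 and 1551 TPM in replicates 1 to 4 of the null group. The 12 higher genes together held 626 to 693 TPM in wild-type and 908 to 1182 TPM in *Mir140*-null libraries, while the other 21 together held 629 to 645 TPM and 643 to 734 TPM. Among the 12, the highest *Mir140*-null library was replicate 1 for 8 genes and replicate 2 for 4, the 2 libraries with few genes detected and low fibroblast markers. Without these 2 libraries 3 of the 12, *Ube2f*, *Ube2n* and *Ube2d2a*, were still higher, beside 2.34% of all genes. Over the 33 genes the log2 fold change then had a median of 0.34. That is 0.27 above the median of all genes in that fit, against 0.36 above it with all libraries. Among the calls lost, *Ube2g2* stood at 0.68 and *Ube2a* at 0.53, while *Ube2j2* fell from 0.80 to 0.48 and *Ube2d3* from 0.58 to 0.38. The part of the other cell types and of RNA quality in the result was not tested.

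The E2s that start ubiquitin chains with many different E3 ligases are those of the D and E classes and *Ube2w*, which modifies protein N termini. Of these 7 genes, 2 were higher, *Ube2d3* and *Ube2d2a*. *Ube2d3* (chr3:135438149-135468198) had the highest TPM of all members in every library and made up 20.8% to 27.8% of their sum. It stood at 265, 307, 277 and 285 TPM in wild-type replicates 1 to 4, and in the null group at 471, 499, 361 and 379 TPM. The genotypes did not overlap, and replicates 3 and 4 of the null group lay nearer to wild-type than replicates 1 and 2. The mean was 283 ± 17.7 TPM (SD, n = 4) in wild-type and 427 ± 67.8 TPM (SD, n = 4) in *Mir140*-null, a ratio of 1.51, and the log2 fold change was 0.58 ± 0.12 (SE; limma, Benjamini-Hochberg adjusted p = 0.0208). The call was lost without wild-type replicate 1, 3 or 4 or *Mir140*-null replicate 2 (limma adjusted p of 0.0518 to 0.0592).

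*Ube2d2a*, its near relative, had 30.0, 31.5, 32.3 and 30.5 TPM in wild-type and 58.2, 42.5, 47.9 and 43.2 TPM in *Mir140*-null replicates 1 to 4. All null libraries were above the narrow wild-type range, with a log2 fold change of 0.60 ± 0.12 (SE; limma, adjusted p = 0.0165). *Ube2d1*, the third of the D class, was at 3.73 to 6.51 TPM in wild-type and 4.17 to 4.98 TPM in *Mir140*-null libraries and was not called (log2 fold change -0.13, 95% interval -0.50 to 0.24). The ratio of *Ube2d3* to *Ube2d1*, taken within each library and so free of the scaling between libraries, was 47.2 to 71.0 in wild-type and 81.4 to 101 in *Mir140*-null, and that of *Ube2d2a* to *Ube2d1* was 4.84 to 8.04 and 8.54 to 12.5. Neither ratio overlapped between the genotypes. Each sets a called gene over a relative that was not called, so the lack of overlap in part restates the calls. How often ratios of other gene pairs do not overlap was not computed.

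*Ube2e2*, on the miR-140-3p.1 list of predicted targets like *Ube2l3*, was at 12.1, 26.5, 27.2 and 17.3 TPM in wild-type, against 32.0, 32.9, 27.9 and 24.6 TPM in *Mir140*-null replicates 1 to 4. The genotypes overlapped and the difference was not called (log2 fold change 0.54, 95% interval -0.04 to 1.12; limma adjusted p = 0.173). Its 3'UTR of 717 bases held only the shorter word CTGTGGA, without the C in front. *Ube2e1*, *Ube2e3* and *Ube2w* had means of 17.4 to 38.8 TPM and were not called, with log2 fold changes of 0.24, 0.17 and 0.34.

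*Ube2l3* (ENSMUSG00000038965, chr16:17152013-17202649, minus strand) encodes the E2 that works with HECT and RBR ligases, such as the parkin and linear-ubiquitin ligases. It had 8.34, 12.8, 10.8 and 12.1 TPM in wild-type and 30.6, 20.0, 18.6 and 17.8 TPM in *Mir140*-null replicates 1 to 4. Every null library exceeded every wild-type library, and replicate 1 of each genotype was the most extreme. The means were 11.0 ± 1.96 TPM (SD, n = 4) and 21.7 ± 5.95 TPM (SD, n = 4), a ratio of 1.98, and the log2 fold change was 0.90 ± 0.20 (SE; 95% interval 0.44 to 1.37; limma, Benjamini-Hochberg adjusted p = 0.0231). With 1 library left out at a time the log2 fold change stayed between 0.74 and 0.99, and it passed the threshold in 4 of the 8 fits: it missed it without wild-type replicate 1 (adjusted p = 0.0518), 3 (0.0602) or 4 (0.0510), or without *Mir140*-null replicate 2 (0.0550). Of all 75-base stretches of its transcripts, 6.71% also occur in other genes, most of them in *Gm10705*.

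Chains linked through lysine 63, which serve signalling and DNA repair rather than degradation, are made by *Ube2n* together with *Ube2v1* or *Ube2v2*, E2 variants that lack the catalytic cysteine. Of these 3 genes, 2 were higher. *Ube2n* (chr10:95515145-95545657) had 82.5, 83.4, 81.2 and 77.0 TPM in wild-type and 134, 102, 117 and 115 TPM in *Mir140*-null replicates 1 to 4, with no overlap. Its log2 fold change was 0.52 ± 0.10 (SE; limma, adjusted p = 0.0163), and the call was lost without wild-type replicate 4 (limma adjusted p = 0.0519). The processed pseudogene *Ube2n-ps1*, whose 385 distinct 75-base stretches all occur in *Ube2n*, was at 30.8 to 42.7 TPM in wild-type and 50.4 to 77.0 TPM in *Mir140*-null libraries, so that reads of the gene and of its copy cannot be told apart there.

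*Ube2v1* (chr2:167607638-167632095), a predicted target of miR-140-5p, had 25.7, 19.8, 26.5 and 22.9 TPM in wild-type and 53.9, 46.6, 35.6 and 35.9 TPM in *Mir140*-null replicates 1 to 4. The lowest null library was above the highest wild-type one, with a log2 fold change of 0.82 ± 0.17 (SE; limma, adjusted p = 0.0176), and the call was lost without wild-type replicate 4 or *Mir140*-null replicate 2 (limma adjusted p of 0.0503 and 0.0523). Its level is uncertain, since 55.0% of its stretches of 75 bases also belong to *Gm20431*, a read-through transcript listed at 0 to 3.15 TPM. *Ube2v2* was at 12.9 to 22.7 TPM and 18.9 to 22.7 TPM and was not called (log2 fold change 0.42, 95% interval 0.02 to 0.82; limma adjusted p = 0.134). The ratio of *Ube2v1* to *Ube2n* overlapped between the genotypes, at 0.238 to 0.326 in wild-type and 0.305 to 0.458 in *Mir140*-null libraries. Among the other genes that were higher, 6.37% of the stretches of *Ube2j2*, 4.01% of those of *Ube2g2*, 3.63% of those of *Ube2d2a* and 1.41% of those of *Ube2f* occur in further genes, besides the shares of *Ube2l3* and *Ube2n* (8.85%).

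*Ube2g2*, *Ube2g1*, *Ube2k* and *Ube2r2* make chains linked through lysine 48, the usual signal for the proteasome, and 1 of the 4 was higher. *Ube2g2* (chr10:77622275-77645993), which serves the ligases that remove misfolded proteins from the endoplasmic reticulum, had 19.3, 30.3, 26.9 and 23.7 TPM in wild-type and 41.3, 42.8, 39.9 and 40.4 TPM in *Mir140*-null replicates 1 to 4. The null libraries were close together here, and the log2 fold change was 0.71 ± 0.14 (SE; limma, adjusted p = 0.0165). *Ube2g1*, its relative, was at 6.00 to 9.70 TPM and 7.66 to 9.85 TPM (log2 fold change 0.11, 95% interval -0.24 to 0.47). Within libraries, *Ube2g2* was 2.44 to 3.75 times *Ube2g1* in wild-type and 4.20 to 5.21 times in *Mir140*-null. *Ube2k* and *Ube2r2* were not called, with log2 fold changes of 0.46 (limma adjusted p = 0.101) and 0.27 (0.195).

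Both E2s that are anchored in the membrane of the endoplasmic reticulum were higher. *Ube2j1* (chr4:33031416-33052363), a predicted target of miR-140-5p, had 31.6, 32.6, 30.6 and 30.9 TPM in wild-type and 48.2, 50.6, 43.9 and 40.2 TPM in *Mir140*-null replicates 1 to 4. The wild-type libraries were close together, with a mean of 31.4 ± 0.885 TPM (SD, n = 4), and its log2 fold change was 0.52 ± 0.10 (SE; limma, adjusted p = 0.0152). *Ube2j2* (chr4:155943831-155959604) had 32.7, 30.1, 21.5 and 23.8 TPM in wild-type and 63.3, 54.2, 40.0 and 35.6 TPM in *Mir140*-null replicates 1 to 4. The gap between the genotypes was small beside the spread within them, with a log2 fold change of 0.80 ± 0.21 (SE; limma, adjusted p = 0.0387), and the call was lost without any 1 of wild-type replicates 1 to 4 or *Mir140*-null replicates 1 and 2 (limma adjusted p of 0.0518 to 0.0964). The ratio of *Ube2j2* to *Ube2j1* overlapped between the genotypes, at 0.704 to 1.04 and 0.885 to 1.31.

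*Ube2a* and *Ube2b* are the paired E2s that ubiquitinate histone H2B and PCNA, and *Ube2t* serves the Fanconi anaemia pathway of DNA repair. Of these 3, *Ube2a* (chrX:36873900-36884222) was higher, with 22.7, 24.7, 21.7 and 19.5 TPM in wild-type and 27.2, 34.0, 33.4 and 31.1 TPM in *Mir140*-null replicates 1 to 4. The lowest null library, replicate 1, was only just above the highest wild-type library, and the log2 fold change was 0.49 ± 0.12 (SE; limma, adjusted p = 0.0288). The call was lost without wild-type replicate 1, 3 or 4 or *Mir140*-null replicate 2, 3 or 4 (limma adjusted p of 0.0528 to 0.0783). *Ube2b* was more abundant, at 95.8, 86.7, 93.0 and 96.3 TPM in wild-type and 99.1, 103, 98.1 and 88.0 TPM in *Mir140*-null replicates 1 to 4, with overlap between the genotypes (log2 fold change 0.06, 95% interval -0.14 to 0.26). *Ube2t* was at 6.67 to 11.8 TPM over the 8 libraries and was not called.

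The 2 E2s of the anaphase-promoting complex, which drives cells out of mitosis, differed by a large factor in level and neither was called. *Ube2s*, which extends the chains, was second among the members in mean TPM, with 236, 182, 196 and 198 TPM in wild-type and 198, 179, 204 and 175 TPM in *Mir140*-null replicates 1 to 4 (log2 fold change -0.10, 95% interval -0.34 to 0.15). *Ube2c*, which starts them, was at 3.70 to 8.29 TPM in wild-type and 1.59 to 5.54 TPM in *Mir140*-null libraries, the most negative log2 fold change of the 33 genes at -0.73 (95% interval -1.51 to 0.04; limma adjusted p = 0.168). Beside it, the 12 markers of cycling cells summed to 45.6 to 92.0 TPM in wild-type and 31.5 to 65.5 TPM in *Mir140*-null libraries, and 1 of them, *Ccnb1*, was called lower. Whether that share of cycling cells bears on *Ube2c* was not tested.

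E2s of ubiquitin-like modifiers included the gene with the largest change. *Ube2f* (ENSMUSG00000034343, chr1:91250304-91290337), one of the 2 NEDD8 E2s and the partner of the cullin Cul5, had 45.0, 60.6, 48.2 and 52.0 TPM in wild-type and 141, 126, 89.3 and 95.2 TPM in *Mir140*-null replicates 1 to 4. The lowest null library lay well above the highest wild-type library. The means were 51.4 ± 6.76 TPM (SD, n = 4) and 113 ± 24.6 TPM (SD, n = 4), a ratio of 2.19, and the log2 fold change was 1.10 ± 0.17 (SE; 95% interval 0.71 to 1.49; limma, Benjamini-Hochberg adjusted p = 0.00872). It passed the threshold in all 19 alternative fits. Its 3'UTR of 4982 bases is the longest of the 33 genes and holds the miR-140-3p.1 word 1 time and the miR-140-3p.2 word 2 times. It is on none of the 3 lists of predicted targets.

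*Ube2m*, the other NEDD8 E2 and the partner of the other cullins, was at 43.4 to 49.5 TPM in wild-type and 38.8 to 58.9 TPM in *Mir140*-null libraries (log2 fold change 0.04, 95% interval -0.31 to 0.38). The ratio of *Ube2f* to *Ube2m* was 0.908 to 1.30 in wild-type and 2.21 to 2.46 in *Mir140*-null libraries. The 2 transcripts thus had like levels in wild-type and unlike ones in null chondrocytes, in every library including replicates 3 and 4. Levels of the enzymes were not measured.

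*Ube2l6*, the E2 of the interferon-induced modifier ISG15, was low, at 1.29 to 3.82 TPM in wild-type and 0.857 to 2.85 TPM in *Mir140*-null libraries, and was not called (log2 fold change -0.42, limma adjusted p = 0.346). The 12 interferon-response genes summed to 21.6 to 37.3 TPM and 18.8 to 29.6 TPM, with 1, *Herc6*, called lower.

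The 7 remaining genes were led by *Ube2z* (chr11:96047432-96065388), the E2 loaded by the second ubiquitin E1, Uba6. It had 15.1, 14.7, 13.9 and 13.6 TPM in wild-type and 29.5, 23.4, 21.3 and 19.1 TPM in *Mir140*-null replicates 1 to 4. The wild-type libraries spanned little and all null libraries lay above them, with a log2 fold change of 0.65 ± 0.14 (SE; limma, adjusted p = 0.0215), and the call was lost without wild-type replicate 3 or 4 or *Mir140*-null replicate 2 (limma adjusted p of 0.0583 to 0.0613). The predicted targets of miR-140-3p.2 in this group were not called. *Ube2h*, the E2 of the CTLH/GID ligase, had 41.6, 52.6, 46.9 and 49.5 TPM in wild-type and 42.9, 60.3, 56.6 and 61.8 TPM in *Mir140*-null replicates 1 to 4 (log2 fold change 0.20, 95% interval -0.12 to 0.52). *Ube2q1* had 10.5, 6.96, 7.78 and 9.50 TPM and 9.52, 6.86, 8.94 and 7.11 TPM (log2 fold change -0.08, 95% interval -0.47 to 0.30). Both genes overlapped between the genotypes. Of the others, *Ube2q2* came closest to the threshold (log2 fold change 0.58, limma adjusted p = 0.0679), and *Ube2o* and *Ube2ql1* had log2 fold changes of -0.14 and 0.35.

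*Ube2cbp* was the member just inside the filter, with 0.377 to 0.908 TPM in wild-type and 0.722 to 1.26 TPM in *Mir140*-null libraries and 6 libraries at 0.5 TPM or more. It has since been renamed Ube3d and is an E3 by name, so it is a member by its symbol only. Just outside were *Ube2d2b*, at up to 0.169 TPM, and *Ube2u*, at up to 0.130 TPM, and *Ube2dnl1* and *Ube2dnl2* were listed at 0 in all 8 libraries.

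**Figure D2:**
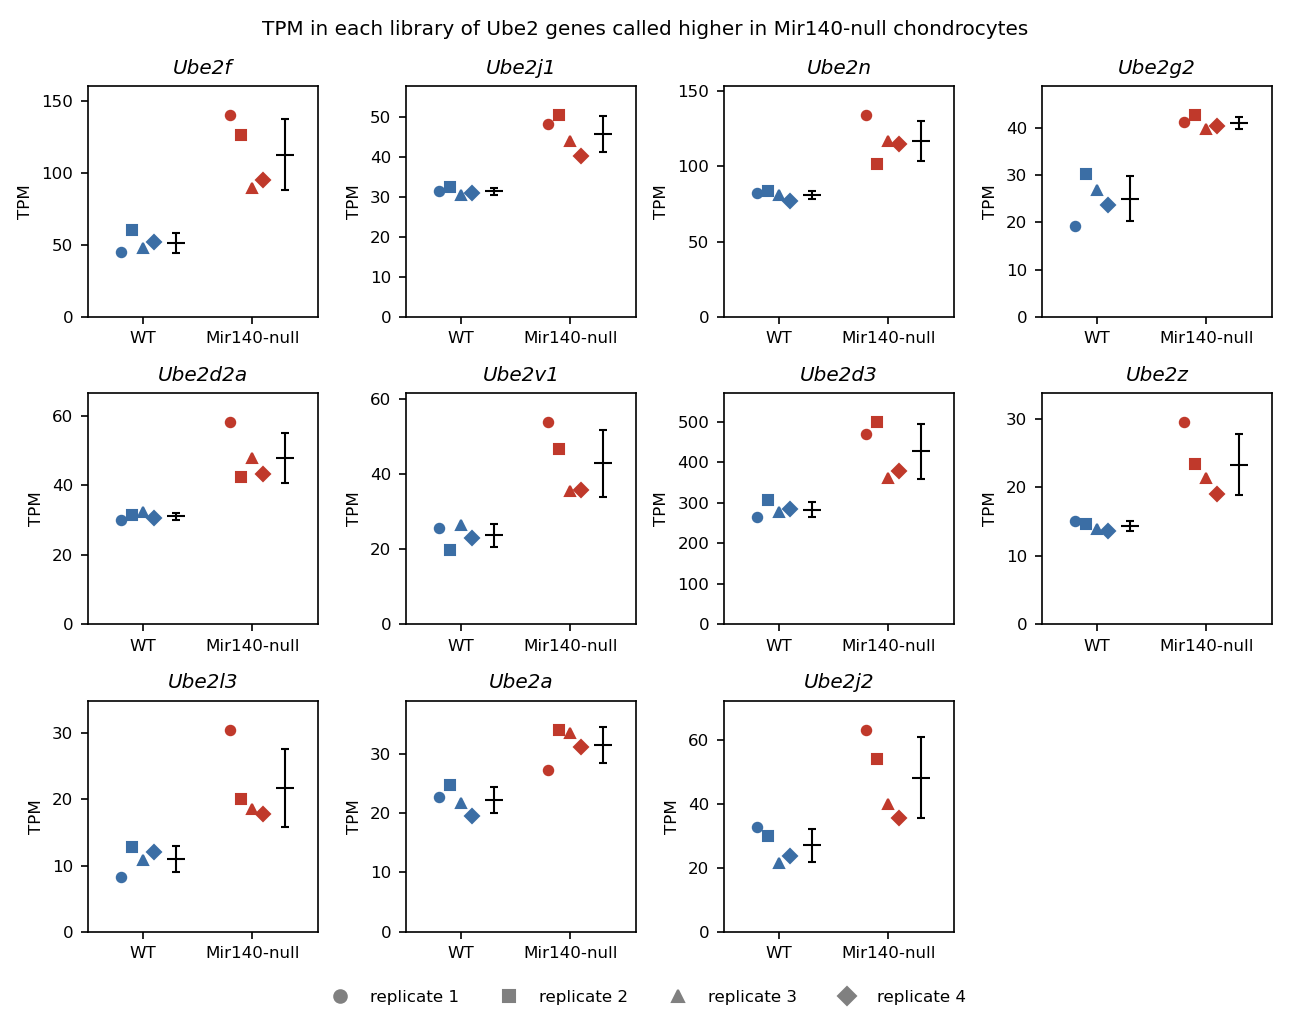
TPM of the called genes described, in each library (y axis, from 0), wild-type in blue and *Mir140*-null in red, with a symbol for each replicate number and the mean ± SD (n = 4) beside each group. In every panel the 4 red points lie above the 4 blue ones, and *Mir140*-null replicate 1 or 2 is the highest.

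**Figure D3:**
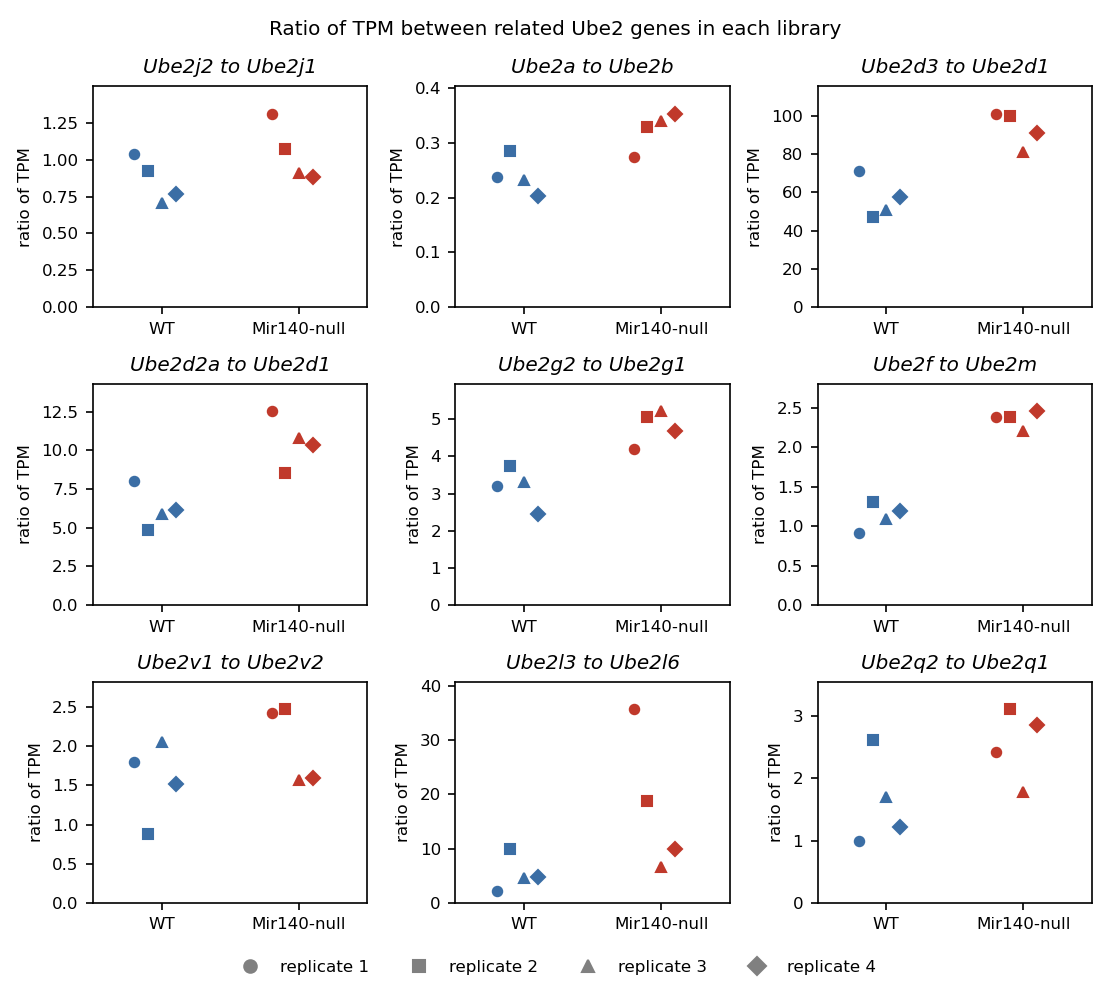
Ratio of TPM between related Ube2 genes within each library (y axis, from 0), by genotype and replicate. The genotypes do not overlap for *Ube2f* to *Ube2m* (0.908 to 1.30 against 2.21 to 2.46), *Ube2g2* to *Ube2g1*, and *Ube2d3* and *Ube2d2a* to *Ube2d1*, while the other 5 ratios plotted overlap. In each pair without overlap the first gene was called and the second was not, so the gap in part restates the call.

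Predicted targets were found among the members for all 3 sequences. *Ube2j1* and *Ube2v1*, on the miR-140-5p list, were higher. On the miR-140-3p.1 list, *Ube2l3* was higher and *Ube2e2* was not called. Neither gene of the miR-140-3p.2 list, *Ube2h* and *Ube2q1*, was called. The lists were predicted from conserved sites in human transcripts and do not use these libraries. Of all 33 members 36.4% were higher, and each list holds too few members for the lists to be compared. The share of each whole list that was higher was not computed.

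Words of miR-140-3p.1 (CCTGTGG, with or without a following A) stood in the 3'UTRs of 8 of the 33 genes (24.2%) and of 20.2% of the 12970 protein-coding genes tested with an annotated 3'UTR. Words of miR-140-3p.2 (CTGTGGT) stood in 6 (18.2%) and in 19.0%. By call, the miR-140-3p.1 word was in 6 of the 12 higher genes (*Ube2a*, *Ube2f*, *Ube2g2*, *Ube2l3*, *Ube2v1* and *Ube2z*) and in 2 of the 21 others (*Ube2ql1* and *Ube2r2*), and the miR-140-3p.2 word was in 3 of the 12 (*Ube2f*, *Ube2j1* and *Ube2j2*) and in 3 of the 21. Either word was in 8 of the 12 and in 3 of the 21. Longer 3'UTRs hold more words of any kind, and the higher genes had a median 3'UTR of 2321 bases, against 1238 bases for the others and 1159 bases for all protein-coding genes tested. Across all genes with a 3'UTR, 15.0% of those with the miR-140-3p.1 word were higher and 12.1% of those without it, with median 3'UTRs of 2264 and 952 bases, and for the miR-140-3p.2 word the shares were 14.5% and 12.3%. The part of 3'UTR length was not tested. *Ube2d3*, *Ube2d2a* and *Ube2n* were higher and hold neither word.

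**Figure D4:**
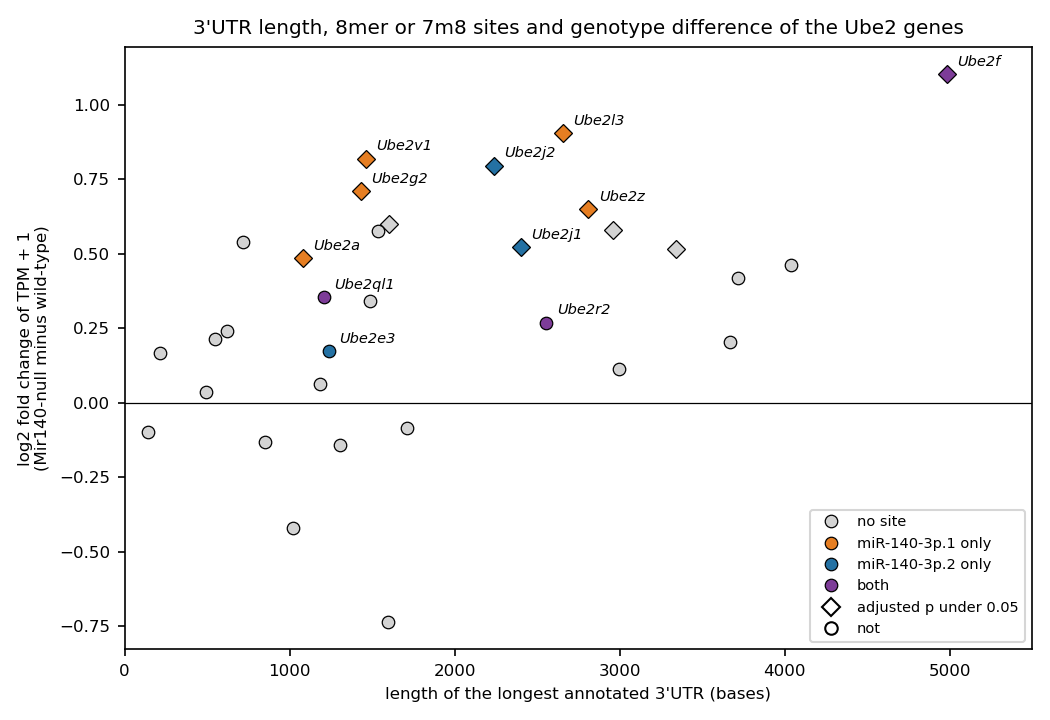
Log2 fold change of TPM + 1, *Mir140*-null minus wild-type, of the Ube2 genes described (y axis) against the length of their longest annotated 3'UTR in bases (x axis), with colours for genes that hold a miR-140-3p.1 word, a miR-140-3p.2 word, both or none, and diamonds for called genes. Of the 11 coloured genes 8 are diamonds, and the called genes have 3'UTRs of 1082 to 4982 bases.

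The pathway around the E2s was represented by 89 other genes, for ubiquitin and its relatives, E1 enzymes, E2s under other symbols and E3 ligases. All were tested, and 17 (19.1%) were higher and 1 was lower. The share higher was 10.5% of all genes tested, 12.7% of the protein-coding ones and 17.4% of the protein-coding genes with a mean of at least 5 TPM. The median log2 fold change of the pathway genes was 0.18, beside 0.04 for the protein-coding genes tested and 0.13 for those with a mean of at least 5 TPM. The pathway count is near the background at that level, although some pathway genes have means under 5 TPM. With 1 library left out at a time 2 to 14 were higher, the fewest without *Mir140*-null replicate 2, and 0 or 1 lower. Of all genes tested, 4.48% were higher in that fit, and 9.30% without *Mir140*-null replicate 3, which left 14 pathway genes. Ubiquitin and ubiquitin-like genes had 2 of 13 higher, among them *Ufm1*, a ubiquitin-like modifier (27.2 to 39.6 TPM in wild-type and 38.7 to 51.2 TPM in *Mir140*-null; log2 fold change 0.52, limma adjusted p = 0.0489). Of 10 genes for E1 enzymes, 1 was higher, *Uba3*, the catalytic subunit of the E1 that loads NEDD8 onto *Ube2f* and *Ube2m* (24.0 to 29.3 TPM and 40.4 to 46.0 TPM; log2 fold change 0.61, limma adjusted p = 0.0109). None of the 8 E2s and variants with other symbols was called. Of 58 E3 genes, 14 were higher and 1 lower, led by *Cul3*, a cullin scaffold that NEDD8 activates (75.4 to 82.7 TPM and 116 to 132 TPM; log2 fold change 0.63, limma adjusted p = 0.00630), and by *Kcmf1*, a ligase that works with *Ube2a* (log2 fold change 0.88, limma adjusted p = 0.0198). *Herc6*, the mouse ISG15 ligase, was the gene that was lower (log2 fold change -0.79, limma adjusted p = 0.0401). *Wwp2*, the E3 ligase gene that hosts *Mir140* in an intron, was at 332 to 459 TPM in wild-type and 261 to 394 TPM in *Mir140*-null libraries and was not called (log2 fold change -0.16, 95% interval -0.52 to 0.19).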

How the data were processed

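Single-end 75-base reads of stranded mRNA libraries were mapped by the authors to the mm10 transcriptome with Salmon, whose version is not given in the sources used here, and TPM per Ensembl gene were deposited for each of the 8 libraries. As deposited, the values account for transcript length and library total, sum to 1000000, and carry neither the RUVSeq factors nor the DESeq2 normalization that the authors applied for their own tests. Each library listed 52325 identifiers, and 540 further lines that repeated an identifier were left out. The depth per library is unknown from TPM, so the precision of low values is not known.

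Libraries were grouped by the genotype in their labels. Genes reaching 0.5 TPM in 4 or more libraries were compared with limma 3.58.1 in R 4.3.3 on log2(TPM + 1), with a mean-variance trend, two-sided, genotype as the only term, and Benjamini-Hochberg adjustment over all genes tested, so fold changes of low genes are understated. The procedure was tested on simulated data. Python 3.11.15, NumPy 2.4.6, SciPy 1.17.1, pandas 2.3.3 and matplotlib 3.10.9 were used for the rest. Biotypes, symbols and 3'UTRs came from GENCODE M21 (99.8% of identifiers found) and miRNA sequences from RefSeq. The mature miR-140-5p sequence was not used here, so only words of the miR-140-3p forms were searched. Stretches of 75 bases shared between genes were counted over the transcripts of GENCODE M21.

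Values in every library are given for members that passed the threshold, members on a list of predicted conserved targets (TargetScan, from the study's supplement), and the 5 members highest in mean TPM, and of each class of pathway genes at most 2 called genes in each direction are named, plus *Wwp2* and *Mir140*. *Ube2c*, *Ube2m* and the other members outside this rule are given by range and fold change. A member and a pathway gene enter the counts and sums but are not reported here. Members, roles, pathway and marker lists were chosen with earlier results of these data known. Alternatives were fitted with a pseudocount of 0.1, without the filter, for genes with a mean of at least 5 TPM, for protein-coding genes only, with median-ratio scaling over all genes or over those with a mean of at least 5 TPM, with quantile normalization, with a replicate block, with 1 factor of unwanted variation, with sample quality weights, and without each library or without *Mir140*-null replicates 1 and 2 together.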

Additional observations from a re-analysis of the deposited data

Results flagged for a closer look

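In 66 groups of 4 libraries (33 genes in 2 genotypes), 2 held a library that stood far from the other 3 relative to the range of the group, where chance alone gives about 5% of groups. *Ube2cbp*, the member nearest to the detection filter, was at 1.26 TPM in *Mir140*-null replicate 3 and at 0.722 to 0.771 TPM in the other *Mir140*-null libraries. *Ube2v2* was at 18.9 TPM in *Mir140*-null replicate 2, below the other *Mir140*-null libraries at 22.3 to 22.7 TPM. Neither gene was called between the genotypes.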

How the results depend on the processing

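The number of Ube2 genes called higher, 12 by limma, was 8 to 12 with a pseudocount of 0.1, no filter, a mean of at least 5 TPM, protein-coding genes only, median-ratio scaling, quantile normalization, 1 factor of unwanted variation or sample quality weights, 4 to 12 with 1 library left out, and 0 were called lower in any of these. It was 7 with median-ratio scaling over genes with a mean of at least 5 TPM and 3 without *Mir140*-null replicates 1 and 2, both chosen after seeing the data. In the fits that gave 8 to 12, the share of all genes tested that were higher ran from 2.67% with no filter to 17.0% with a mean of at least 5 TPM. It was 14.3% with 1 factor of unwanted variation and 8.77% with quantile normalization, where the members' median lay 0.27 above that of all genes. With 1 library left out, the fewest members remained without wild-type replicate 4 (4), *Mir140*-null replicate 2 (5), wild-type replicate 3 (6) or wild-type replicate 1 (7). With a library left out, *Ube2f*, *Ube2j1*, *Ube2g2* and *Ube2d2a* passed in all 8 fits. The log2 fold change of *Ube2l3*, 0.90, was 0.74 to 0.99 with a library left out and 0.69 without *Mir140*-null replicates 1 and 2, where it was no longer called (limma adjusted p = 0.0868). The sign turned for *Ube2b*, to -0.11 with quantile normalization and -0.071 with median-ratio scaling over genes with a mean of at least 5 TPM, and for *Ube2q1*, to 0.0031 without wild-type replicate 1 (-0.17 to 0.0031 with a library left out), none of them called.

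Deviations of same-numbered libraries correlated at -0.01 to 0.07 across genes. These values cannot decide whether replicate numbers pair the libraries, since the split within the null group could hide a modest pairing. With the replicate block, 4 Ube2 genes were called higher (*Ube2f*, *Ube2g2*, *Ube2z* and *Ube2j2*), beside 3.91% of all genes against 10.5% without it, and *Ube2l3* kept a log2 fold change of 0.90 with a limma adjusted p of 0.0755, and 4 pathway genes were higher and 0 lower.

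Of the 89 pathway genes, 17 were higher and 1 lower. The higher count was 22 with 1 factor of unwanted variation, 18 with a mean of at least 5 TPM, 16 or 17 with a pseudocount of 0.1, protein-coding genes only or sample quality weights and 12 with median-ratio scaling. It fell to 4 with no filter, 6 with quantile normalization, 2 to 14 with a library left out (2 without *Mir140*-null replicate 2, 3 without wild-type replicate 3 or 4, 5 without *Mir140*-null replicate 1, 7 without wild-type replicate 1 or 2, and 9 without *Mir140*-null replicate 4), 1 without *Mir140*-null replicates 1 and 2, and 3 with median-ratio scaling over genes with a mean of at least 5 TPM. The lower count was 0 with no filter, quantile normalization or without *Mir140*-null replicates 1 and 2, 0 to 1 with a library left out, 2 with a mean of at least 5 TPM or protein-coding genes only, and 3 with 1 factor of unwanted variation, sample quality weights or median-ratio scaling over genes with a mean of at least 5 TPM. Of all genes tested in the same fits, 14.3% were higher with 1 factor of unwanted variation and 17.0% with a mean of at least 5 TPM. The share was 9.28% with median-ratio scaling, 2.67% with no filter, 8.77% with quantile normalization and 4.48% to 9.30% with a library left out. It was 2.34% without *Mir140*-null replicates 1 and 2, and 6.43% with median-ratio scaling over genes with a mean of at least 5 TPM. The cause of the moves in these counts was not tested. The unknown exact depth of each library limits most the members under a few TPM.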
